A study of Mus musculus with 6 samples.

Results

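The genes of glycolysis, of glucose and lactate transport, and of their regulation were examined in cultured myoepithelial cells from the lacrimal gland of TSP1 null and wild-type mice. The set held 34 genes named by symbol: glycolytic enzymes, glucose and lactate carriers, the PDK and PFKFB regulator families, and glycogen genes. A gene was measured by the probe set that carries its symbol and no other, and by the brightest such probe set where there were several. That rule found 29 of the 34 genes, among 22180 symbols on the arrays. No probe set matched Gpi1, Eno1 or Pfkfb1 here, and Aldoa and Pgm1 were matched only by probe sets shared with another gene.

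Glycolysis splits glucose into pyruvate in the cytosol. Glucose enters through facilitative carriers, is phosphorylated by hexokinase, passes the committed step at phosphofructokinase, and is cleaved to trioses that are oxidised to pyruvate. Pyruvate is reduced to lactate and exported with a proton, or enters mitochondria through pyruvate dehydrogenase, which the PDK kinases hold back. Many of these genes are transcribed by the hypoxia-inducible factors when oxygen is scarce, and cultured cells commonly use the pathway even in air.

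Myoepithelial cells are contractile basal cells around the acini of the gland. The study compared 3 arrays of cells from TSP1 null mice with 3 arrays of cells from wild-type C57BL/6J mice. All mice were female, the cells came from exorbital glands and grew untreated in RPMI medium with serum and pyruvate for 2 to 3 weeks, and 150 ng of total RNA was labelled per array. TSP1 is thrombospondin-1, a secreted matrix protein encoded by Thbs1, and the null mouse serves in the series as a model of dry eye disease. The sources used here give neither the age of the mice, nor the strain background of the null allele, nor whether each biological replicate had its own animal. The p-values therefore refer only to spread among the arrays, which may be technical.

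The arrays gave log2 signals with medians of 5.25 to 5.32, and array number, not sequencing depth, limits the precision. Thbs1 itself measured 12.73, 13.03 and 13.004 on the null arrays and 13.51, 13.75 and 13.54 on the wild-type arrays, a difference of -0.68 (SE 0.13, limma adjusted p = 0.25). Its signal was thus among the brightest of all genes in the group labelled TSP1 null too, and the genotype rests on the labels, since the position of the probe set relative to the disrupted part of the gene is unknown here. Of 8 contractile markers of the labelled cell type, the brightest, Acta2, measured 13.85 to 14.01 on the 6 arrays and the dimmest, Oxtr, 5.48 to 6.02. Their mean was 9.50, 9.91 and 9.57 on the null arrays and 9.46, 9.48 and 9.52 on the wild-type arrays. In the null cells 5 of the 8 had higher and 3 lower means. The basal transcription factor gene Trp63 measured 4.47 to 4.93, under the median of every array. Of 7 measured basal epithelial markers, 5 had higher and 2 lower means in the null cells, from 0.89 for the keratin gene Krt14 to -0.49 for the integrin gene Itga6, with a median of 0.27. Macrophage markers were bright as well: the mean of 18 markers was 9.39, 10.22 and 7.66 on the null arrays and 10.07, 10.69 and 10.86 on the wild-type arrays. In bulk RNA of a culture, a change in the number of cells of a type and a change in RNA per cell cannot be told apart.

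Signals of the pathway were higher on average in the TSP1 null cells. The mean of the null arrays exceeded that of the wild-type arrays for 26 of 29 genes, where 55.1% of all genes did so. The median difference was 0.43 on the log2 scale, against 0.02 over all 22180 genes. For 13 of the 29 every null array lay above every wild-type array (10.1% of all genes), and for 0 of the 29 the null arrays all lay below (5.75% of all genes). Of the single genes, 0 passed an adjusted p of 0.05 in limma, as over all genes (0%), and the lowest adjusted p, 0.178, was that of Pfkl. At an unadjusted p under 0.05 limma gave 14 genes, all higher in the null cells (6.28% of all genes), and an ordinary linear model gave 7, all higher (5.91% of all genes). The genes with the largest differences stood at separate points of the pathway: Pfkl at 2.67-fold, Slc16a3 at 2.52-fold, Slc2a1 at 2.07-fold, Pdk1 at 1.98-fold and Gys1 at 1.92-fold.

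**Figure D1:**
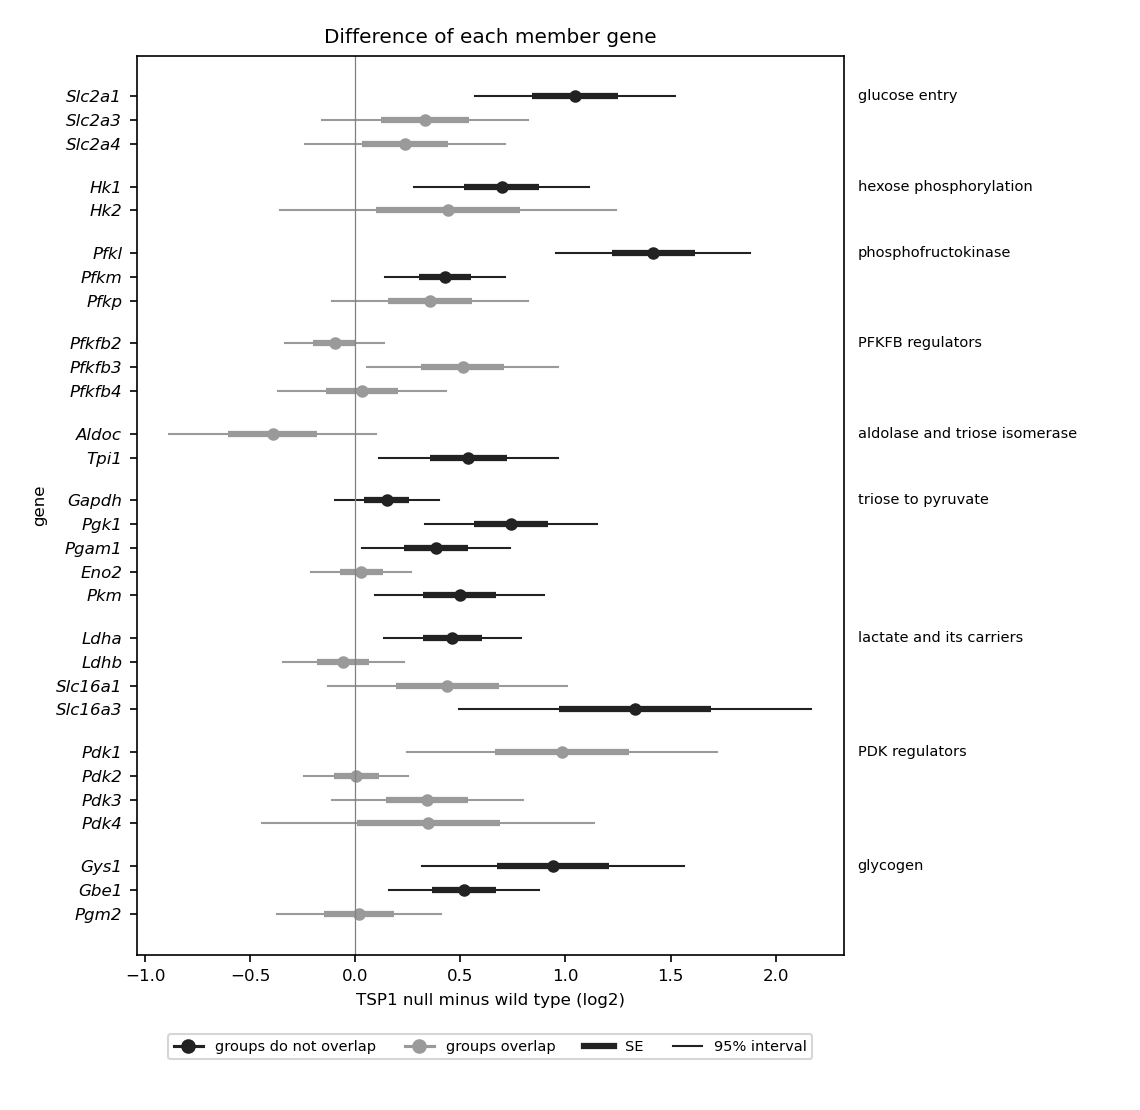
Difference between the TSP1 null and wild-type means (x axis, log2) of the 29 measured genes, ordered by pathway step (y axis); points are differences, thick bars limma's SE and thin bars 95% intervals, with 3 arrays per group. Most points lie to the right of 0, with Pfkl (1.42) and Slc16a3 (1.33) farthest, while Aldoc (-0.39), Pfkfb2 (-0.10) and Ldhb (-0.06) lie to the left; black marks the 13 genes whose groups do not overlap.

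The second null array lay nearest to the wild-type arrays. It was the lowest of its group for 20 of the 29 genes and for 13 of the 14 with an unadjusted p under 0.05. For 12 genes it lay below the other null arrays and still above every wild-type array (4.6% of all genes). The first null array did so for 1 gene, Pfkm (2.75% of all genes), and the third for 0 (2.69% of all genes). Around each gene's mean over the 6 arrays, the median of the 29 genes was 0.28, 0.0095 and 0.33 on the null arrays and -0.27, -0.06 and -0.16 on the wild-type arrays. Without the second null array, 4 of the 29 genes passed limma's threshold over all genes, all of them higher, against 34 of 22180 genes in either direction (0.153%) and 15 higher (0.0676%): Pfkl at 1.65 (SE 0.13, adjusted p = 0.0162), Slc2a1 at 1.29 (SE 0.13, adjusted p = 0.0327), Gys1 at 1.28 (SE 0.13, adjusted p = 0.0327) and Slc16a3 at 1.77 (SE 0.20, adjusted p = 0.0455). That fit has 2 null arrays, and it was singled out with these values in view.

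**Figure D2:**
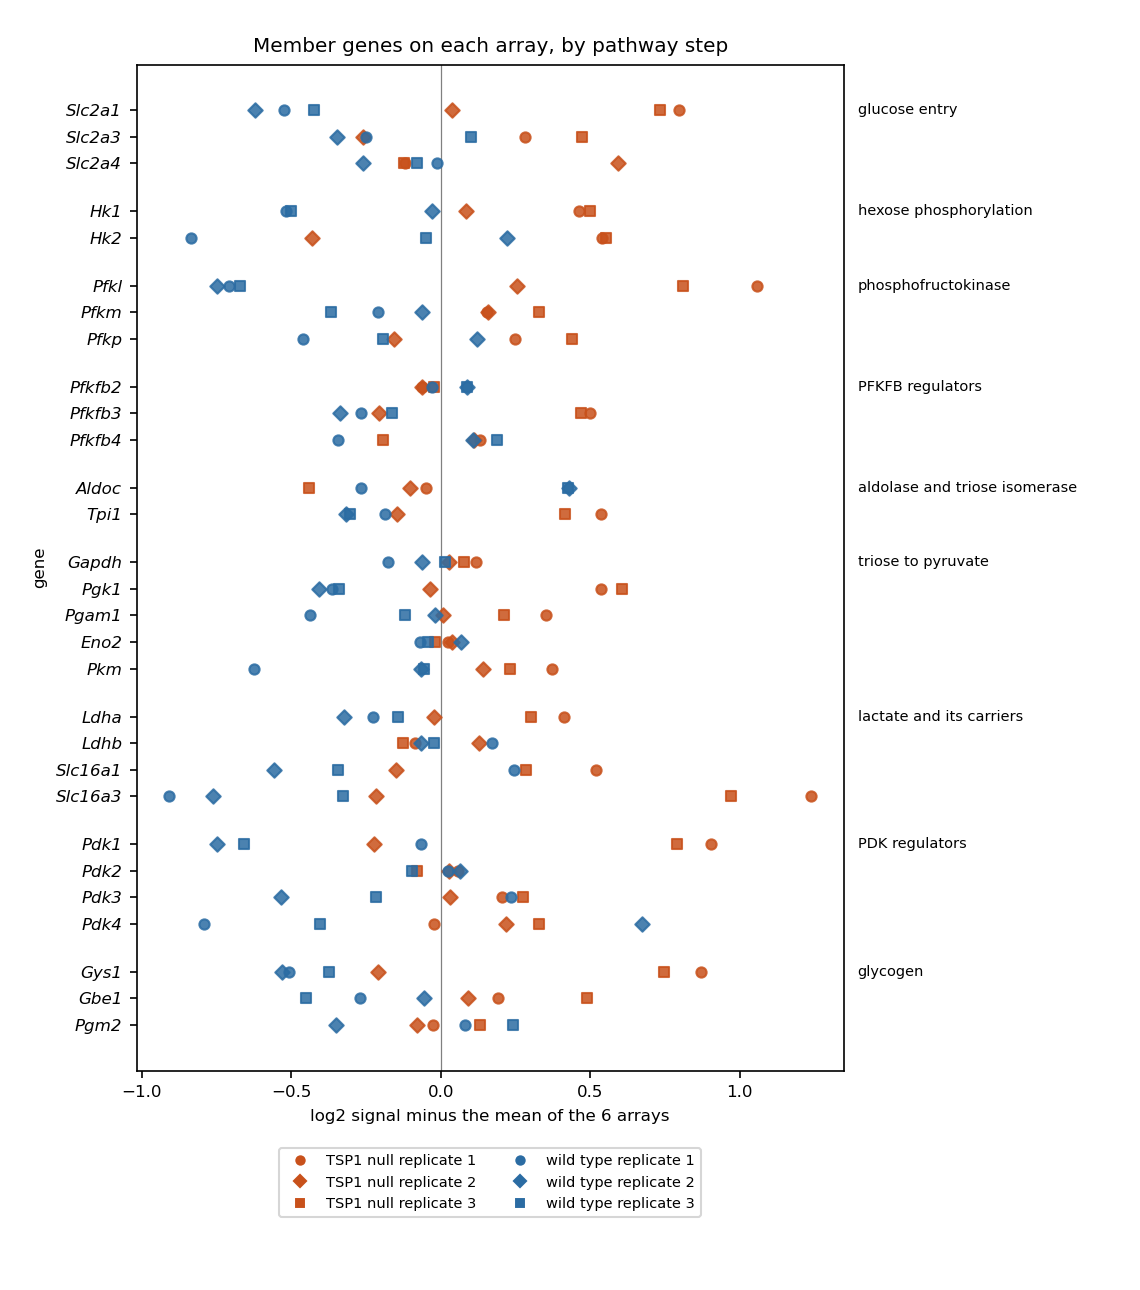
Log2 signal of each gene on each array minus the gene's mean over the 6 arrays (x axis), by pathway step (y axis), with TSP1 null arrays in orange and wild-type arrays in blue and a symbol for each replicate number. The first and the third null arrays lie far to the right for Slc2a1, Pfkl, Slc16a3, Pdk1 and Gys1, and the second null array (orange diamond) lies between them and the wild-type arrays for 12 of the 29 genes.

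The promoters of 5 genes are shown because these genes had higher signals in the null cells and stand at different steps of the pathway: glucose entry, the committed step, triose oxidation, lactate formation and lactate export. They are RefSeq sequences of build GRCm38.p6, the 250 bases before the annotated start site, read 5′ to 3′ on the gene's strand. Capitals mark ACGTG on either strand, the core that hypoxia-inducible factors bind. Slc2a1 is at chr4:119108495-119108744 on the + strand, Pfkl at chr10:78009808-78010057 on the - strand, Pgk1 at chrX:106186850-106187099, Ldha at chr7:46845554-46845803 and Slc16a3 at chr11:120948817-120949066, the last 3 on the + strand.
Slc2a1: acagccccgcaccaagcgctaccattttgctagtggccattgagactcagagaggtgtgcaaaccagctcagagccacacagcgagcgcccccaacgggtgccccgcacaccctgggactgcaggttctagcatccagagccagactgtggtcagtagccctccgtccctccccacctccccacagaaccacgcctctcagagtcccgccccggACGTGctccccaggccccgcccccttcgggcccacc
Pfkl: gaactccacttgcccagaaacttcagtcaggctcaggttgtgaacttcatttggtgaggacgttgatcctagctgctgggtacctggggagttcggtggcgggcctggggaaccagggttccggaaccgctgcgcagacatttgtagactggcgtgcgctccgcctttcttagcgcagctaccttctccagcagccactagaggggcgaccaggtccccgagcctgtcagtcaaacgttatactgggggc
Pgk1: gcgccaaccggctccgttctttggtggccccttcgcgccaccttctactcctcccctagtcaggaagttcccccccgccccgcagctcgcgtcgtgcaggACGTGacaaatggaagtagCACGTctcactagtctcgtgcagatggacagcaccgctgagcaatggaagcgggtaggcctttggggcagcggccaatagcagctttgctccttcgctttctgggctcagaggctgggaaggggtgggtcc
Ldha: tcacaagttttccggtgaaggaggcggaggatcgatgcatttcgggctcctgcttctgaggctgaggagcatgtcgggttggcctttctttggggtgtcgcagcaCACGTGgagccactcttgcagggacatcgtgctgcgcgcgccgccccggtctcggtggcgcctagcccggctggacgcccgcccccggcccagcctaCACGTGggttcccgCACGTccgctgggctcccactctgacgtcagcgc
Slc16a3: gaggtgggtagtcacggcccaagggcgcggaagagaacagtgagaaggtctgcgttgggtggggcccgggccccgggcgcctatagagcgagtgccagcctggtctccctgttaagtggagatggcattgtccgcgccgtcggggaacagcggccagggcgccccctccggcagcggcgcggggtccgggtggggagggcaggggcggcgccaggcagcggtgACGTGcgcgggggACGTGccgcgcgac
The printed stretch holds 1 match to ACGTG in Slc2a1, 2 in Pgk1, 5 in Ldha, 2 in Slc16a3 and 0 in Pfkl. Another form of the core, GCGTG, is not marked, and it occurs in the Pfkl and Slc2a1 stretches. A match on each strand is counted where the letters are CACGTG, an E-box, as at 2 places in Ldha. Ldha has a second annotated start, whose window holds 0 matches to ACGTG. Pdk1 and Gys1, which had larger differences than Pgk1 and Ldha, are not shown, and their windows hold 0 matches to ACGTG. The printed promoters are therefore not a sample of the genes with the largest differences.

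Over the 300-base windows of all annotated starts (250 bases before and 50 after), 27 of the 29 genes had a RefSeq window, and Slc2a3 and Slc2a4 had no entry. ACGTG occurred in 20 of the genes' 39 windows (51.3%) and in 19.6% of 32851 windows of all genes. The genes' windows are richer in the bases of the motif, with a median GC content of 60.7% and 15 CG pairs, against 52.7% and 7 over all windows. GCGTG, the other form of the core, was found in 53.8% of the genes' windows and in 32.4% of all, and CACGTG in 15.4% and 7.15%. Genes with and without ACGTG had close medians. The 17 with ACGTG in a window had a median difference of 0.44, with 9 higher at an unadjusted limma p under 0.05. The 10 without had a median of 0.44, with 5, where 6.28% of all genes were higher at that threshold. Some of the 10, such as Pfkl and Pdk1, hold GCGTG, so the split does not part genes with a core from genes without.

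Glucose entry was represented by the carrier genes Slc2a1, Slc2a3 and Slc2a4, which encode GLUT1, GLUT3 and the insulin-responsive GLUT4. Slc2a1 had log2 signals of 11.67, 10.91 and 11.61 on the null arrays and 10.35, 10.25 and 10.45 on the wild-type arrays. The groups did not overlap, and the lowest null array lay 0.46 above the highest wild-type array. Its difference was 1.05 (SE 0.20, 95% interval 0.57 to 1.52, n = 3 per group, limma adjusted p = 0.25). A second, dimmer probe set of Slc2a1 had a difference of 0.28 (SE 0.12). Slc2a3 measured 6.08, 5.53 and 6.27 against 5.54, 5.45 and 5.89, so its groups overlapped, and its difference of 0.33 was 0.18 without the third null array and 0.54 without the second. Slc2a4, a carrier of fat and muscle, was near the array median and had a difference of 0.23 (SE 0.20) that came from the second null array, at 5.76 where the other 5 arrays read 4.91 to 5.16. Without that array its difference was -0.0037. The mean of 8 adipocyte markers was highest on that array too, at 7.26 against 6.51 to 6.94 on the others. The adipokine gene Adipoq read 5.76 there against 3.96 to 4.69. Not every marker went that way: Cidec, Cebpa and Pparg were higher on the third wild-type array, Pparg at 9.36 against 8.91. The part of adipocyte markers in the Slc2a4 value was not tested.

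Hexokinase traps glucose in the cell as glucose 6-phosphate. Hk1, the housekeeping form, measured 8.24, 7.86 and 8.28 on the null arrays and 7.26, 7.75 and 7.28 on the wild-type arrays, without overlap. Its difference was 0.70 (SE 0.18, limma adjusted p = 0.321). Hk2, the inducible form, measured 8.81, 7.84 and 8.83 against 7.44, 8.50 and 8.22. The second null array was below 2 of the wild-type arrays, and the interval of the difference of 0.44 ran from -0.36 to 1.24. It was 0.13 without the first wild-type array and 0.77 without the second null array. A probe set shared by Hk1 and its antisense gene Hk1os went the other way, at -0.42 (SE 0.19).

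Phosphofructokinase commits sugar to glycolysis, and its isoforms are named for liver, muscle and platelet. Pfkl, the liver form, measured 10.24, 9.43 and 9.99 on the null arrays and 8.47, 8.43 and 8.51 on the wild-type arrays. The wild-type arrays lay within an SD of 0.04, and the lowest null array was 0.93 above the highest of them. The difference was 1.42 (SE 0.20, 95% interval 0.96 to 1.88, limma adjusted p = 0.178). Pfkm, the muscle form, measured 6.72, 6.72 and 6.89 against 6.35, 6.50 and 6.19, a difference of 0.43 (SE 0.12, adjusted p = 0.343) without overlap. Pfkp, the platelet form, measured 10.14, 9.74 and 10.33 against 9.43, 10.01 and 9.70, and its groups overlapped. Its difference of 0.36 had an interval from -0.11 to 0.82, and was 0.21 without the first wild-type array.

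The PFKFB enzymes make and remove fructose 2,6-bisphosphate, the activator of phosphofructokinase. Pfkfb3, the form with the strongest kinase activity, measured 7.82, 7.12 and 7.79 on the null arrays and 7.05, 6.99 and 7.16 on the wild-type arrays. Its second null array fell within the wild-type range, and the difference was 0.51 (SE 0.20, adjusted p = 0.436). Pfkfb2 had a difference of -0.10 (95% interval -0.33 to 0.14) and Pfkfb4 one of 0.03 (-0.37 to 0.43).

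Aldolase cleaves the hexose and triose phosphate isomerase evens out the products. Tpi1, the isomerase gene, measured 12.03, 11.35 and 11.92 on the null arrays and 11.31, 11.18 and 11.19 on the wild-type arrays. The groups were 0.04 apart at their nearest arrays, and the difference was 0.54 (SE 0.18, adjusted p = 0.391). Aldoc, the brain aldolase, had the lowest difference of the 29 genes, with 6.20, 6.14 and 5.81 against 5.98, 6.68 and 6.67. The first wild-type array lay among the null arrays, and the difference of -0.39, or -0.62 without that array, had an interval from -0.89 to 0.10. For Aldoa, the main aldolase of most tissues, the probe set shared with Aldoart1 measured 6.97, 6.60 and 6.97 against 6.23, 6.37 and 6.45, a difference of 0.50 (SE 0.14) without overlap.

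The steps from triose to pyruvate yield the pathway's ATP. Pgk1, which encodes phosphoglycerate kinase, measured 12.65, 12.08 and 12.72 on the null arrays and 11.75, 11.71 and 11.78 on the wild-type arrays. The groups were separate, and the difference was 0.74 (SE 0.18, 95% interval 0.33 to 1.15, adjusted p = 0.298). Pkm, the pyruvate kinase gene, measured 12.21, 11.98 and 12.07 against 11.22, 11.77 and 11.78, a difference of 0.50 (SE 0.17, adjusted p = 0.398), or 0.31 without the first wild-type array, which was the lowest. Pgam1, a phosphoglycerate mutase gene, measured 10.87, 10.53 and 10.73 against 10.08, 10.50 and 10.40. Its groups were 0.03 apart at the nearest arrays, with a difference of 0.38 (SE 0.15). Its other probe set differed by 0.41 (SE 0.16).

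Gapdh and Eno2 differed least at these steps. Gapdh, often used to normalise other genes, measured 13.70, 13.61 and 13.66 on the null arrays and 13.41, 13.52 and 13.60 on the wild-type arrays. Its groups were 0.01 apart at the nearest arrays, and the difference was 0.15 (SE 0.11, 95% interval -0.10 to 0.40), or 0.099 without the first wild-type array. Eno2, the neuronal enolase, had a difference of 0.03 (95% interval -0.21 to 0.26). Genes such as Gapdh, Pgk1, Pgam1, Tpi1, Ldha and Pkm have near-identical copies elsewhere in the genome, so how far their probe sets read a single gene is uncertain.

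Lactate is made by lactate dehydrogenase and carried out of the cell by monocarboxylate transporters. Slc16a3, which encodes the exporter MCT4, measured 9.61, 8.15 and 9.34 on the null arrays and 7.46, 7.61 and 8.04 on the wild-type arrays. The groups did not overlap, although the second null array was only 0.11 above the third wild-type array. The difference was 1.33 (SE 0.36, 95% interval 0.49 to 2.17, adjusted p = 0.328), the widest interval of the 29 genes. Another probe set, shared by Slc16a3 and Csnk1d, had a difference of 0.29 (SE 0.13). Ldha, whose subunit favours the formation of lactate, measured 7.34, 6.91 and 7.23 against 6.70, 6.61 and 6.79, a difference of 0.46 (SE 0.14, adjusted p = 0.356) without overlap. Ldhb, the heart subunit, measured 6.73, 6.95 and 6.69 against 6.99, 6.75 and 6.80, a difference of -0.06 (95% interval -0.34 to 0.23). Slc16a1, which encodes the carrier MCT1, measured 9.08, 8.41 and 8.85 against 8.81, 8.002 and 8.22. Its groups overlapped, and the interval of its difference of 0.44 ran from -0.13 to 1.01. It was 0.27 without the second wild-type array and 0.67 without the first.

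The PDK kinases switch off pyruvate dehydrogenase. Pdk1, a hypoxia-inducible form, measured 9.40, 8.27 and 9.28 on the null arrays and 8.42, 7.74 and 7.83 on the wild-type arrays. The second null array was below the first wild-type array, and the difference was 0.98 (SE 0.32, 95% interval 0.25 to 1.72, adjusted p = 0.379). Pdk2 measured 8.06 ± 0.07 and 8.06 ± 0.08 (SD, n = 3), with an interval of the difference from -0.24 to 0.25. Pdk3 had a difference of 0.34 (95% interval -0.11 to 0.80), which was 0.16 without the second wild-type array and 0.54 without the first. Pdk4, a form induced in fasting, measured 9.15, 9.39 and 9.50 against 8.38, 9.85 and 8.77, and the wild-type arrays spanned more than the null arrays. Its difference of 0.35 was 0.04 without the first wild-type array and 0.77 without the second.

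Glycogen stores glucose as a branched polymer. Gys1, the glycogen synthase of muscle and most other tissues, measured 10.22, 9.14 and 10.10 on the null arrays and 8.85, 8.82 and 8.98 on the wild-type arrays. The groups were 0.16 apart at the nearest arrays, with a difference of 0.94 (SE 0.27, 95% interval 0.32 to 1.56, adjusted p = 0.338). Gbe1, the branching enzyme gene, measured 8.55, 8.45 and 8.85 against 8.09, 8.30 and 7.91, a difference of 0.52 (SE 0.15, adjusted p = 0.349) without overlap. Pgm2, of the phosphoglucomutase family, had a difference of 0.02 (95% interval -0.37 to 0.41). The probe set shared by Pgm1, which links glycogen to glycolysis, and Itgb3bp measured 9.53, 9.12 and 9.51 against 8.35, 8.69 and 8.61, a difference of 0.84 (SE 0.16). Which of its genes gave that value was not tested.

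Isoforms of the same step stood on both sides of this picture. Slc2a1, Hk1, Pfkl, Pfkm, Pfkfb3, Ldha, Slc16a3 and Pdk1 had intervals above 0. In the same families Slc2a3, Slc2a4, Hk2, Pfkp, Pfkfb2, Pfkfb4, Ldhb, Slc16a1, Pdk2, Pdk3 and Pdk4 had intervals that included 0. Whether the differences of 2 isoforms differ was not tested, and an interval that includes 0 does not show equal signals.

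Other genes of the pathway were read from lists of 82 measured genes. Their median difference was 0.05, with 54 means higher and 28 lower in the null cells, and 0 passed limma's adjusted threshold. At an unadjusted p under 0.05 there were 11 higher and 2 lower, where 6.28% and 4.27% of all genes were. The 16 remaining glycolysis genes, mostly isozymes of other tissues, had a median of -0.02 and 0 at an unadjusted p under 0.05. Hk3, a hexokinase of leukocytes, had -0.76 (SE 0.37) and Eno3, the muscle enolase, -0.47 (SE 0.26). Hk3 was lowest on the third null array, at 5.52, where macrophage markers were lowest too.

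**Figure D3:**
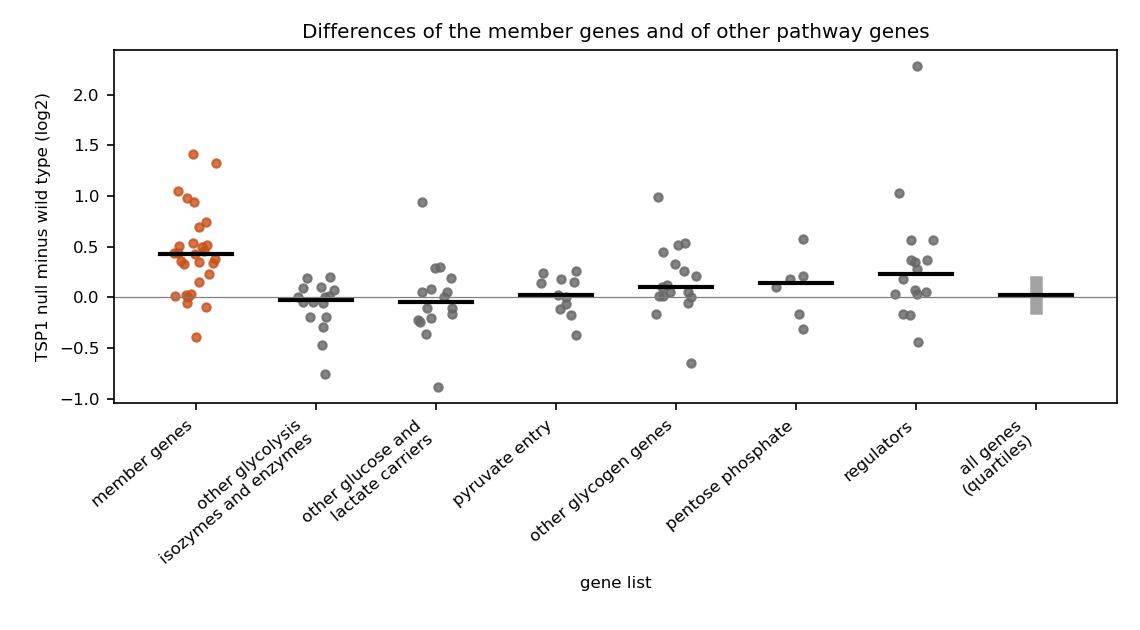
Differences between TSP1 null and wild-type means (y axis, log2) of the 29 examined genes (orange) and of 6 lists of other pathway genes (grey), with a black line at each median and the quartiles of all 22180 genes at the right. The examined genes have a median of 0.43, and the medians of the other lists run from -0.05 for other carriers to 0.23 for regulators, where Egln3 (2.28) is the highest point.

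Among 16 other carriers and their partners the median difference was -0.05. Txnip, whose product lowers glucose uptake, measured 12.29, 11.78 and 12.31 on the null arrays and 11.29, 11.20 and 11.05 on the wild-type arrays, a difference of 0.95 (SE 0.17, adjusted p = 0.213). Slc16a7, which encodes the pyruvate and lactate carrier MCT2, measured 6.24, 6.69 and 6.20 against 7.50, 7.08 and 7.22, a difference of -0.89 (SE 0.17, adjusted p = 0.25). The groups of these genes were separate in opposite directions. Bsg, the chaperone of MCT1 and MCT4, had a difference of 0.30 (SE 0.10) without overlap.

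Genes of pyruvate entry into mitochondria had a median difference of 0.03 over 11 genes, with 0 at an unadjusted limma p under 0.05 (10.6% of all genes). Dlat, a subunit of pyruvate dehydrogenase, had 0.24 (SE 0.12) and Pck2, the mitochondrial PEP carboxykinase, 0.26 (SE 0.15). The 6 measured pentose phosphate genes had a median of 0.14, and H6pd, the glucose 6-phosphate dehydrogenase of the endoplasmic reticulum, had 0.58 (SE 0.14, adjusted p = 0.295), while Taldo1, transaldolase, had -0.32 (SE 0.22). The 17 other glycogen genes had a median of 0.11. Pygl, a glycogen phosphorylase, measured 8.18, 7.44 and 8.20 on the null arrays and 7.31, 6.74 and 6.79 on the wild-type arrays. Here too the second null array lay between the other null arrays and the wild-type ones. Phka2, a regulatory subunit of phosphorylase kinase, was lower on every null array, at -0.65 (SE 0.13, adjusted p = 0.25).

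Regulators of the pathway had a median difference of 0.23 over 16 genes. Of these, 6 were higher at an unadjusted limma p under 0.05 (6.28% of all genes) and 0 lower (4.27%). For 4 of the 16 every null array lay above every wild-type array (10.1% of all genes), and for 1 all lay below (5.75%). The oxygen sensors Egln3 and Egln1, prolyl hydroxylases that mark hypoxia-inducible factors for decay, had differences of 2.28 (SE 0.44, adjusted p = 0.25) and 1.03 (SE 0.20, adjusted p = 0.25). Egln3 measured 10.36, 8.67 and 10.40 against 7.73, 7.23 and 7.63, with the second null array again between the groups. Hif1a itself measured 11.27, 11.31 and 11.35 on the null arrays and 11.57, 10.75 and 10.77 on the wild-type arrays, and its groups overlapped. Epas1, the gene of HIF-2 alpha, had -0.44 (SE 0.54), and Myc, a general activator of glycolytic genes, 0.04 (SE 0.32). The activity of these factors was not measured.

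Macrophage markers differed along with the glycolysis genes, and macrophages also run glycolysis. All 18 markers had lower means in the null cells, with a median difference of -1.44. Of these, 14 were lower at an unadjusted limma p under 0.05 (4.27% of all genes). For only 3 of the 18 did every null array lie below every wild-type array (5.75% of all genes). Their mean was lowest on the third and first null arrays, where the glycolysis genes were highest. Among the wild-type arrays it was otherwise: the first had the lowest marker mean (10.07) and also the lowest glycolysis median (-0.27). The second null array read 10.22 for these markers, between the first wild-type array at 10.07 and the second at 10.69. With the marker mean as a covariate the median difference of the 29 genes was 0.29, and 20 of them moved nearer to 0. Pfkl then had 1.21 (SE 0.26) and Slc2a1 0.76 (SE 0.24), and these were the 2 genes left at an unadjusted p under 0.05, where 3.39% of all genes were higher. Slc16a3 had 0.93 (SE 0.46), Gys1 0.56 (SE 0.31) and Pdk1 0.44 (SE 0.33) in that fit. Group and marker level are partly confounded in 6 arrays, so their parts cannot be told apart. Markers of other cells differed as well. Of 10 fibroblast markers 6 had higher and 4 lower means in the null cells. Their differences ran from 1.03 for Col3a1 to -1.05 for Lum, with a median of 0.28. At an unadjusted limma p under 0.05, 4 of the 10 were higher (6.28% of all genes). These were the collagen genes Col3a1, Col1a1 (0.54) and Col1a2 (0.51) and the receptor gene Pdgfrb (0.32). The list's mean signal was 10.52 to 11.11 on the null arrays and 10.15 to 11.34 on the wild-type arrays. Of 8 endothelial markers 3 had higher and 5 lower means, from 0.43 for Tek to -1.28 for Emcn, with a median of -0.27. At an unadjusted limma p under 0.05, Kdr (-0.55) and Pecam1 (-0.38) were lower, as were 4.27% of all genes. The list's mean signals were 4.93 to 5.22 on the null arrays and 5.09 to 5.75 on the wild-type arrays. The part of these other cell types in the glycolysis values was not tested.

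**Figure D4:**
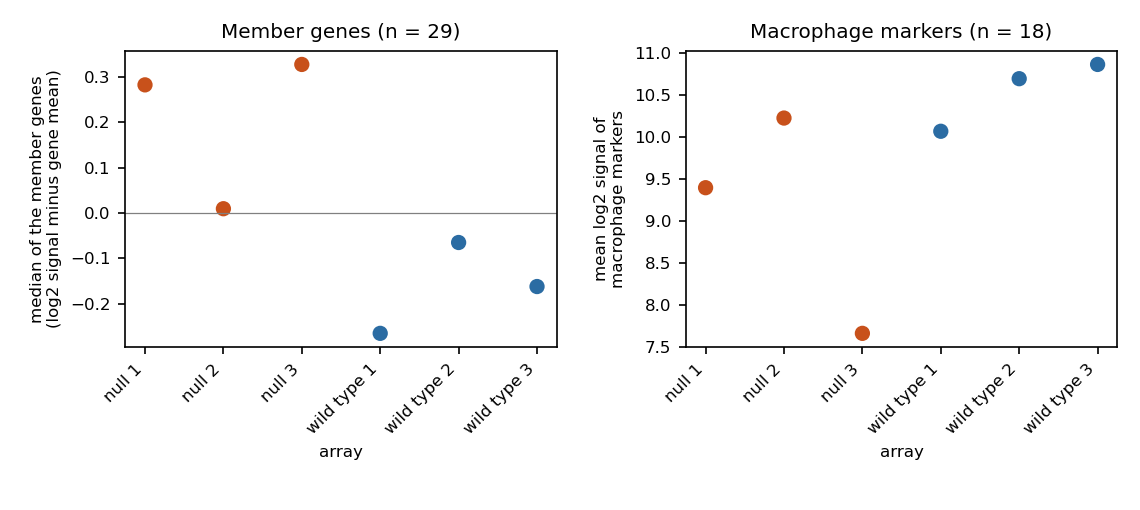
Left, median over the 29 genes of the log2 signal minus the gene's mean over the 6 arrays (y axis), for each array (x axis); right, mean log2 signal of 18 macrophage markers on the same arrays, with TSP1 null arrays in orange and wild-type arrays in blue. The null arrays with the highest glycolysis medians (0.28 and 0.33) have the lowest marker means (9.39 and 7.66), while the second null array has 0.0095 and 10.22. The first wild-type array has the lowest glycolysis median (-0.27) and the lowest wild-type marker mean (10.07).

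**Figure D5:**
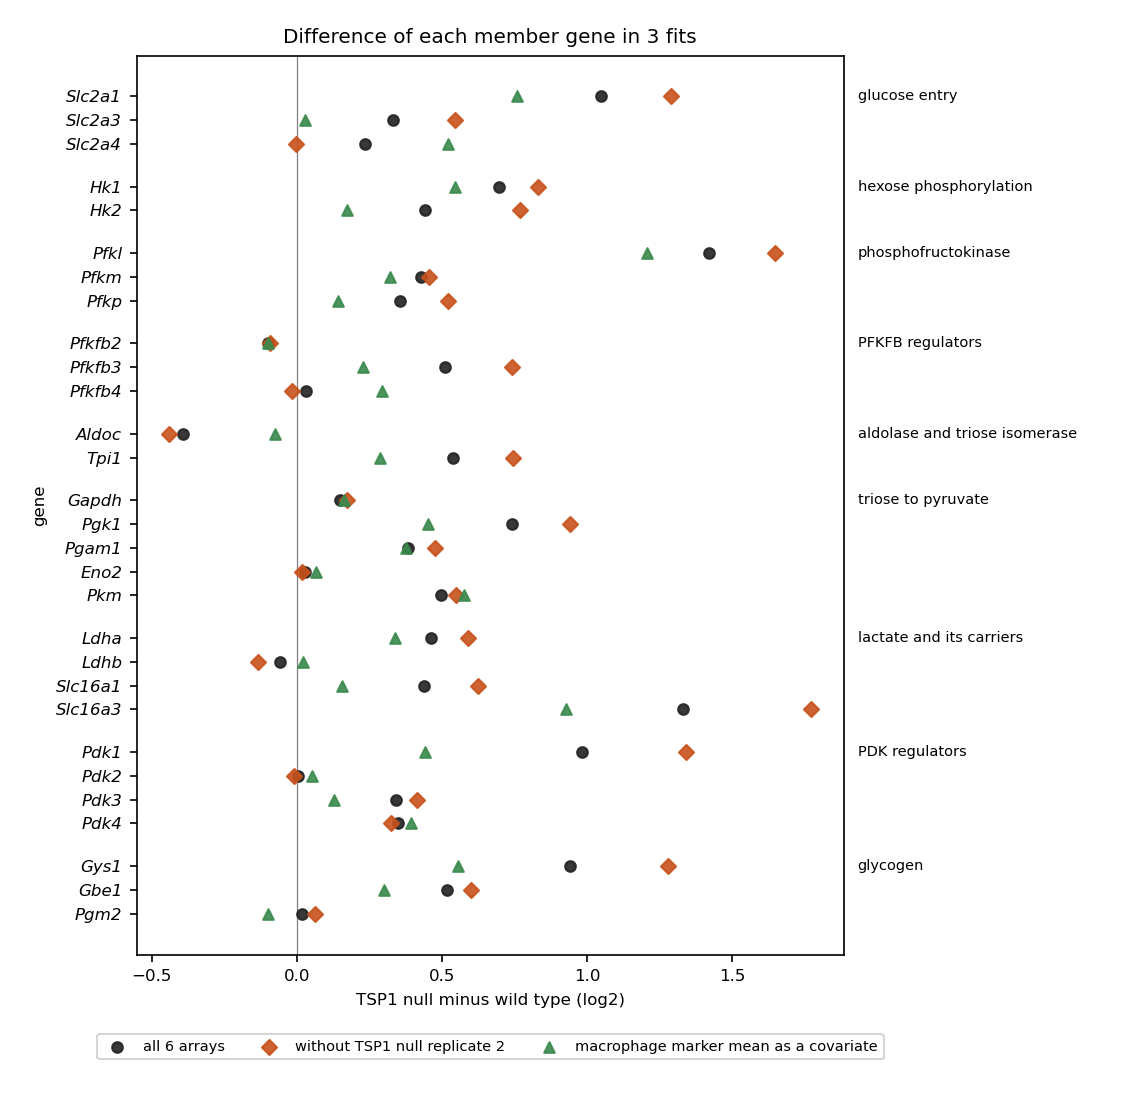
Difference between TSP1 null and wild-type signals (x axis, log2) of the 29 genes by pathway step (y axis), from all 6 arrays (black circles), without the second null array (orange diamonds) and with the macrophage marker mean as a covariate (green triangles). Pfkl reads 1.42, 1.65 and 1.21 in the 3 fits, and Pdk1 ranges from 0.44 to 1.34.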

How the data were processed

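The values deposited by the authors are log2 signals, for 41345 probe sets on each of 6 Affymetrix mouse gene arrays (3 per group). RMA and Partek were used, per the submitters' processing notes, and their versions and settings are unknown here. RMA corrects background, normalizes quantiles across arrays and summarises the probes of a set, and its floor compresses differences of dim probe sets. That the scale is log2 follows from the range of the values. Groups and replicate numbers came from the sample titles. The platform annotation gave 1 gene symbol for 23521 probe sets. The brightest probe set per symbol left 22180 genes, all tested with no filter.

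Null minus wild type was fitted over all genes with limma 3.58.1 in R 4.3.3 (lmFit and eBayes, two-sided, Benjamini-Hochberg over all genes, threshold 0.05), without covariates. Errors are limma's SE and 95% intervals, except SDs named as such. For second and shared probe sets the SE came from the same model fitted over all 41345 probe sets, so it differs slightly in scale from the others. The fit was tested on simulated data. Promoters were RefSeq's, and figures were drawn with Python 3.11.15 and matplotlib 3.10.9. Every measured gene of the set was named, with 2 genes of smallest p from each other pathway list, Hif1a, Myc, Thbs1 and markers. Bsg, Epas1 and probe sets shared by several genes were chosen with their values in view. The genes, lists and alternatives were chosen with earlier results of these data known.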

Additional observations from a re-analysis of the deposited data

How the results depend on the processing

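Differences kept their direction in all 17 alternatives for 23 of the 29 genes. Elsewhere signs turned near 0: Pfkfb4 at -0.077 with array weights and -0.18 without the second null and first wild-type arrays together, where Eno2 was -0.010; Pgm2 at -0.029 with array weights and -0.10 with the macrophage covariate, where Ldhb was 0.022; and Pdk2 at -0.0028 after a further quantile normalization. With 1 array left out, Slc2a4 ran from -0.0037 to 0.35, Pfkfb4 from -0.13 to 0.14, Ldhb from -0.13 to 0.015, Pdk2 from -0.043 to 0.044 and Pgm2 from -0.15 to 0.14. Leaving out 1 array moved the difference of 15 of the 29 genes by over 1.5 times, Eno2 among them from 0.0011 to 0.07. The count of the 29 genes at an unadjusted p under 0.05 (14) was 7 in an ordinary linear model (5.91% of all genes higher) and 2 with the macrophage covariate (3.39%), and ran from 9 without the first null array (4.02%) to 18 without the second (6.76%). Array weights gave 17, of which 16 were higher (8.11% of all genes) and 1 lower, Aldoc at -0.52 (SE 0.18). Genes without overlap between groups (13 of the 29, all higher) ran from 13 to 20 with 1 array left out, where fewer arrays separate more genes by construction: without the second null array 19 were higher (18.2% of all genes) and 1 lower (12.3%). The genes passing over all genes ran from 0 to 34, those among the 29 from 0 to 4 and those among 82 other pathway genes from 0 to 2 (Txnip and Egln3, without the second null array). Leaving out the second null and first wild-type arrays together kept 2 arrays per group. In that fit 23 of the 29 genes did not overlap between groups. Of these, 20 were higher (26.2% of all genes) and 3 lower (20.5%). Over all genes 365 of 22180 passed, 145 higher and 220 lower. Among the 29 genes 7 passed, all higher: Slc2a1, Pfkl, Slc16a3, Gys1, Pgk1, Pdk1 and Tpi1. Of the 82 other pathway genes 6 passed, 4 higher and 2 lower. Testing every deposited probe set passed 2 probe sets, 0 of them of the 29 genes. Leaving out only the first wild-type array passed 1 gene, a lower one. The labels do not say whether replicate numbers pair the groups. Between arrays of the same number, deviations from group means correlated over all genes at -0.14, 0.18 and -0.16. Only replicate 2 matched its own number best. With 3 arrays per group these values cannot settle whether the arrays were paired. With the replicate number as a block, 0 of the 29 genes passed and 14 were higher at an unadjusted limma p under 0.05 (5.46% of all genes). The median difference of the 29 genes ran from 0.29 to 0.54 over the alternatives. The cause of these shifts was not tested beyond the construction of each alternative. The number of arrays limits every value.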
